A study of Drosophila melanogaster with 6 samples.

Results

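The Rab GTPase genes of Drosophila melanogaster were followed in RNA recovered by precipitation of the RNA-binding protein Zn72D. Members were all genes whose FlyBase symbol is Rab followed by a number, with or without letters, or RabX followed by a number. These were 32 of the 17453 genes in the tables. Another Rab gene that meets the same rule is not reported here. Of the 32 members, 26 had enough counts to be tested, and the other 6, all X-linked copies, are given apart at their counts.

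Rab proteins are small GTPases of membrane traffic. Each one cycles between a GTP-bound form, which sits on a particular organelle and recruits effectors such as tethers and motors, and a GDP-bound form that a chaperone keeps in the cytosol. Exchange factors switch a Rab on and GTPase-activating proteins with a TBC domain switch it off. In the fly head, Rabs are known for traffic to the light-sensing membrane of photoreceptors, the making of eye pigment granules and the vesicle traffic of neurons.

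RNA came from heads of adult flies, males and females pooled, of the genotype y1 w*; P{PTT-GA}Zn72D[CA07703], in which a protein trap at the Zn72D locus adds GFP to its product. The groups were 3 immunoprecipitates taken with an antibody against GFP (RIP) and 3 inputs, which are samples of the lysate before precipitation, numbered 1 to 3 in each group. All 6 libraries carry the same trap, and no precipitate from flies without it was analysed here, so each value of RIP is relative to input only. Neither the age of the flies nor whether the numbers stand for separate fly collections is given. The p-values thus reflect only how far these 6 samples scatter, and that scatter may be technical. A level in bulk heads does not tell the number of cells of a type from the RNA per cell.

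The RIP libraries held 28070655 to 38182015 expected counts and the input libraries 34401553 to 38331703. rRNA took 4.73% to 9.39% of the RIP counts and 78.1% to 83.0% of the input counts, which left 25434735 to 36377598 counts in RIP and 5864723 to 8182107 in input. The low members are therefore less precisely counted in input. All 5 neuron markers (elav, nSyb, brp, Syt1 and Appl) were higher in RIP, with a summed level of 5391 to 6704 TPM in RIP and 2409 to 2628 in input, where TPM is rescaled so that protein-coding genes alone make up the total. The sums of 5 markers each overlapped for photoreceptors (20738 to 28529 in RIP and 21075 to 26353 in input), glia (959 to 1134 in RIP and 974 to 1083 in input), fat body (6296 to 15045 in RIP and 6234 to 14744 in input) and testis (76.5 to 455 in RIP and 122 to 951 in input). Muscle markers summed to 3982 to 4723 TPM in RIP and 6134 to 6276 in input, and none of the markers was at 0 in every library. The part of these cell types in the Rab values was not tested.

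The summed level of the 32 Rab genes was 2928, 2828 and 3269 TPM in RIP, against 2696, 2651 and 3119 TPM in input, on the protein-coding scale. The groups overlapped, and replicate 3 was highest in each. Within each number the RIP sum was above the input sum, and this difference was not tested.

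The most abundant members per length were the same 4 genes in both groups, in another order. In RIP they were Rab1, which acts between the endoplasmic reticulum and the Golgi (363 ± 72.7 TPM, SD, n = 3), Rab5 of early endosomes (348 ± 37.1), Rab32 of eye pigment granules (331 ± 69.3) and Rab7 of late endosomes (248 ± 43.8). In input the order was Rab32 (453 ± 124.9 TPM), Rab7 (301 ± 77.0), Rab5 (293 ± 8.41) and Rab1 (258 ± 21.5). In RIP these neighbours lay within each other's spread, and Rab10 (247 ± 16.8) stood level with Rab7. In input the same held except between Rab5 and Rab1, whose SDs did not meet. Rab10 averaged 247 TPM in RIP and 140 ± 2.71 in input, and Rab35 averaged 178 ± 17.1 in RIP and 93.9 ± 4.76 in input. Among the tested members RabX5 stood lowest, at 2.61 ± 0.92 TPM in RIP and 5.07 ± 3.34 in input. The order of the levels of the 26 tested members was close between the groups (Spearman 0.95 across genes, which share libraries and are not independent).

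**Figure D1:**
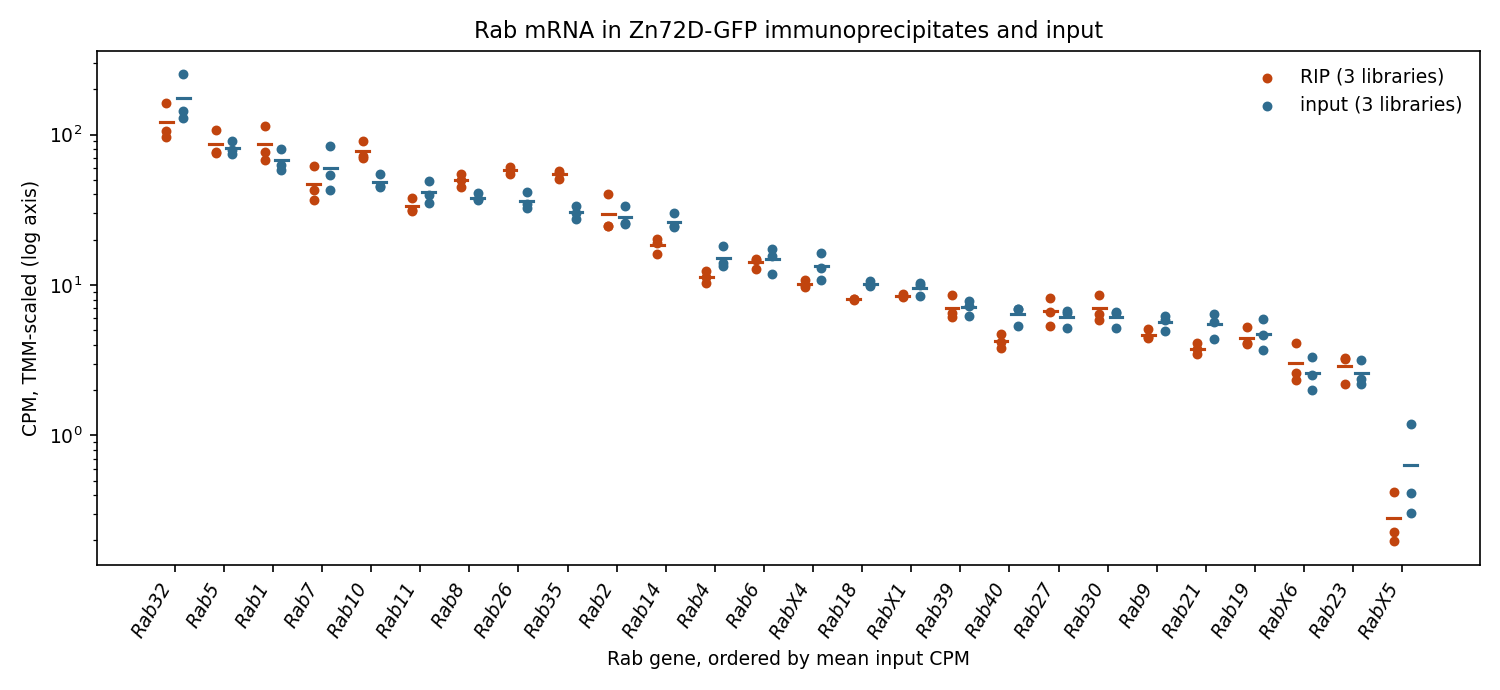
CPM (read counts relative to TMM-scaled library size, log axis) of the 26 tested Rab genes, RIP left and input right for each gene, ordered by mean input CPM; points are libraries and bars are means of 3. Rab32, at 96.6 to 162 CPM in RIP and 128 to 252 in input, stands at the top, and RabX5, under 1.2 CPM in every library, at the bottom.

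RIP was compared with input to find which Rab RNAs were recovered with Zn72D more or less than other RNAs. Of the 26 tested members, 4 were higher in RIP (Rab8, Rab10, Rab26 and Rab35), 3 were lower (Rab14, Rab18 and Rab40) and 19 did not pass, by edgeR's quasi-likelihood test at an adjusted p under 0.05. That is 15.4% higher and 11.5% lower, against a background of 20.2% higher and 17.0% lower (37.3% in either direction) among the 11670 genes tested. The median log2 fold change of the members was -0.08 and that of all genes 0.06. The changes were small: 25 of 26 members lay between -1 and 1 on the log2 scale, against 79.1% of all genes, and the range ran from -1.19 (RabX5, not passed) to 0.84 (Rab35). In 4 members all RIP values lay above all input values and in 6 all lay below, while for all genes the shares were 26.5% and 24.3%.

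These counts moved with the model. When the replicate number was added as a block, 5 members were higher and 10 lower (background 32.7% higher and 27.7% lower). With each library's trend of counts on transcript length removed, 4 were higher and 0 lower (background 10.2% higher and 10.6% lower, and 1195 higher and 1234 lower genes in all), and with both the block and that removal 11 were higher and 2 lower (background 27.0% and 23.2%). Every fold change is set against the other genes, so the splits move with the scaling: without rRNA genes the Rab split was 3 higher and 7 lower and that of all genes 1825 and 2488, with upper-quartile scaling 4 and 8 and 2181 and 2547, scaled by library size only 25 and 0 and 9386 and 173, and in log2(TPM + 1) 26 and 0 and 11296 and 25. Without a filter on low counts none of the 3 lower members passed (edgeR adjusted p = 0.0589 for Rab14, 0.154 for Rab18 and 0.0821 for Rab40). Of all 15795 genes in that fit, 2310 were higher and 1588 lower. The median of all genes was 1.90 with library size alone and 2.54 in log2(TPM + 1), so there nearly every gene was higher.

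**Figure D2:**
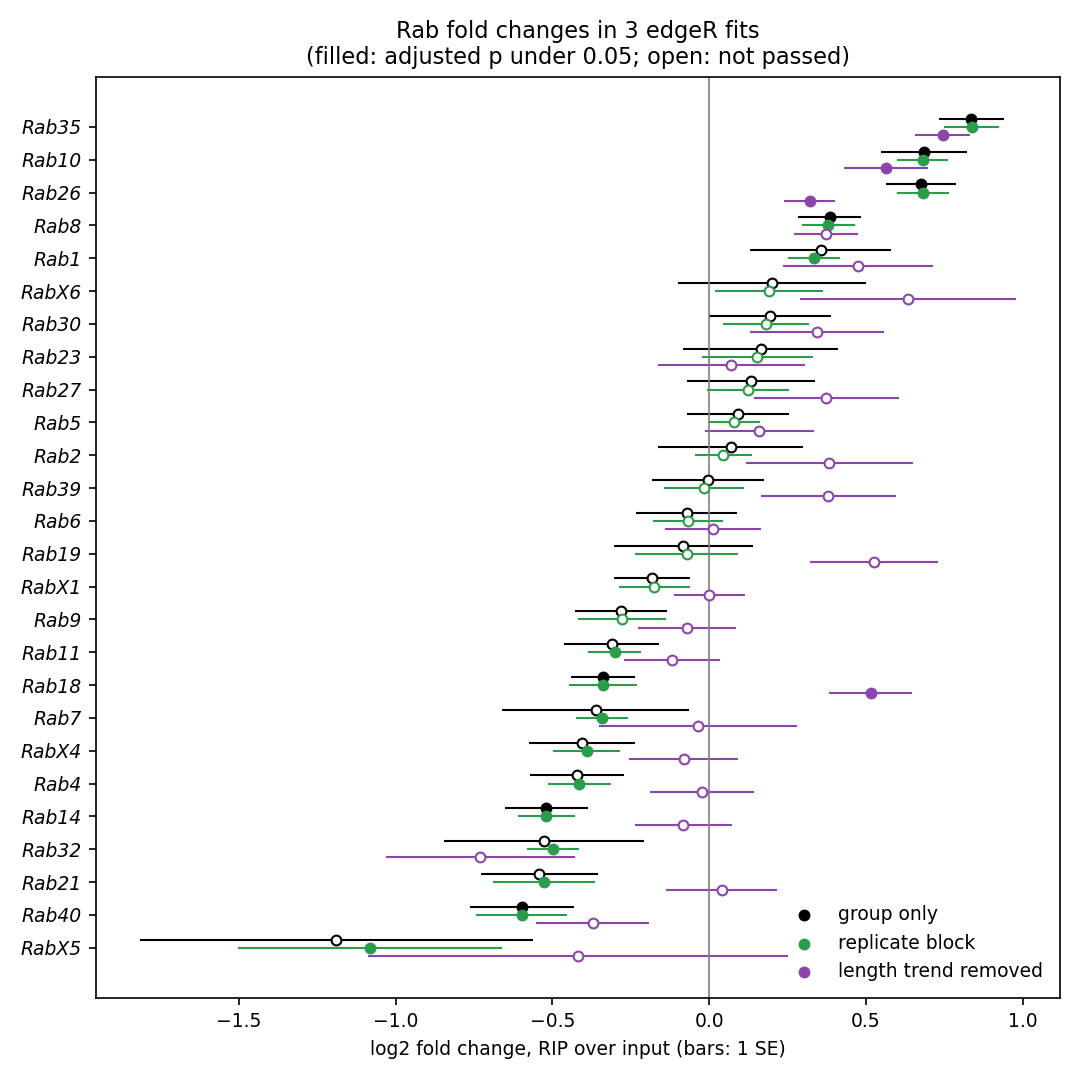
Log2 fold changes of RIP over input (points) with 1 SE (bars) for the 26 tested Rab genes in 3 edgeR fits: group only, replicate block, and length trend removed; filled points passed an adjusted p under 0.05. Rab10, Rab26 and Rab35 are filled to the right of 0 in all 3 fits, and Rab18 is filled left of 0 in the first pair and right of 0 with the length trend removed.

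Each member was placed in 1 group by role, although some act in more than 1 place, and the counts by group rest on that choice. Whether the groups differ was not tested. Rabs of secretion and the plasma membrane held 3 of the 4 higher members: of 5 tested, 3 were higher, 1 was lower and 1 did not pass (median log2 fold change 0.38), where 20.2% of all tested genes were higher and 17.0% lower. The 3 higher ones are over 2000 bases long, and of all genes 18.3% were higher at 2000 to 3000 bases and 59.1% at 3000 or more. Rab10 (FBgn0015789; dm6 chromosome X, 20251338 to 20254691, plus strand) acts in polarised secretion, in flies that of basement membrane proteins. Rab10 had 72.0, 69.8 and 90.9 CPM in the RIP libraries, against 45.0, 45.4 and 54.3 CPM in input. The groups did not overlap, and Rab10 was 1.61-fold higher in RIP (log2 0.69 ± 0.14, SE; edgeR adjusted p = 0.0101). The call ended without input replicate 1 (adjusted p = 0.0505) and without input replicate 2 (adjusted p = 0.0526).

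Rab26 (FBgn0086913; 3L, 21318774 to 21335027, plus strand) is a Rab of synaptic vesicles and secretory granules. Rab26 had 57.9, 54.9 and 60.9 CPM in RIP, against 34.7, 32.7 and 41.3 CPM in input. Every RIP library lay well above every input library, and the difference (log2 0.68 ± 0.11; edgeR adjusted p = 0.0047) was called in all 20 alternatives. After removal of the length trend it was 0.32 (edgeR adjusted p = 0.0401), still called but smaller. Among the 20 alternatives, library size alone and both TPM settings called most genes higher. Exons of Rab26 share 200 bases with the antisense gene asRNA:CR46068 on the other strand, and whether counting used strand is not given in the sources used here.

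Rab8 (FBgn0262518; 3L, 19867488 to 19871078, minus strand) carries vesicles from the Golgi to the plasma membrane. Rab8 had 49.8, 44.8 and 54.6 CPM in RIP, against 36.5, 37.2 and 40.6 CPM in input. The groups stood close without overlap, and Rab8 was 1.30-fold higher (log2 0.38 ± 0.10; edgeR adjusted p = 0.0274). The call held with 1 library left out only when that was input replicate 3, and the adjusted p was up to 0.107 when another was. It also ended with RLE scaling (edgeR adjusted p = 0.0881), without rRNA genes (0.0916), with a stricter count filter (0.155), with DESeq2 (adjusted p = 0.0713) and with the length trend removed (edgeR adjusted p = 0.0505).

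Rab14 and Rab27 did not share that direction. Rab14 (FBgn0015791; 2L, 14355145 to 14358764, plus strand), which in vertebrates acts between endosomes, the Golgi and the cell surface, had 18.9, 16.1 and 20.1 CPM in RIP, against 24.5, 24.4 and 30.2 CPM in input. All RIP values were below all input values, and Rab14 fell by 0.52 ± 0.13 on the log2 scale (edgeR adjusted p = 0.0238). With the length trend removed the value was -0.08 (edgeR adjusted p = 0.763), and with 1 library left out the call held only without RIP replicate 3 (adjusted p up to 0.0635 otherwise). Rab27, of secretory granule release, had 5.34, 6.61 and 8.24 CPM in RIP, against 5.16, 6.53 and 6.69 CPM in input, and these overlapped (log2 0.13 ± 0.20; edgeR adjusted p = 0.667).

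Rabs of early and recycling endosomes included Rab35, which had the highest fold change of the family. Of 5 tested, 1 was higher, 0 were lower and 4 did not pass (median log2 fold change -0.31). Among all tested genes 20.2% were higher and 17.0% lower. Rab35 (FBgn0031090; X, 20155766 to 20159872, minus strand) returns cargo to the cell surface and shapes actin there. Rab35 had 55.3, 50.5 and 57.2 CPM in RIP, against 27.6, 30.2 and 33.5 CPM in input. The RIP libraries all lay above the input libraries by a wide margin, the difference was 1.79-fold (log2 0.84 ± 0.10; edgeR adjusted p = 0.0017), and it was called in all 20 alternatives (adjusted p up to 0.0154). After removal of the length trend it was 0.74 (edgeR adjusted p = 0.00581). Here too, library size alone and both TPM settings are among the 20 alternatives and called most genes higher.

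The other endosomal Rabs did not pass. Rab5, which defines early endosomes, had 77.1, 75.7 and 106.9 CPM in RIP, against 78.5, 74.6 and 90.6 CPM in input, with the groups overlapping (log2 0.09 ± 0.16; edgeR adjusted p = 0.71). Rab11 of recycling endosomes, which in flies also serves the photoreceptor membrane, had 31.6, 31.1 and 37.6 CPM in RIP, against 39.7, 35.2 and 49.5 CPM in input, again overlapping (log2 -0.31 ± 0.15; edgeR adjusted p = 0.167). Rab4, of fast recycling, had 11.2, 10.3 and 12.3 CPM in RIP, against 13.4, 13.9 and 18.0 CPM in input. Rab21, also of early endosomes, had 3.75, 4.11 and 3.47 CPM in RIP, against 5.71, 4.37 and 6.44 CPM in input. For Rab4 and Rab21 each RIP value lay below each input value, without passing (log2 -0.42 ± 0.15, edgeR adjusted p = 0.0715, and log2 -0.54 ± 0.19, edgeR adjusted p = 0.064). With the replicate block, Rab4 (edgeR adjusted p = 0.00118), Rab11 (0.0042) and Rab21 (0.0081) were called lower.

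Of 7 Rabs placed with the endoplasmic reticulum and the Golgi, 6 did not pass (median log2 fold change 0.00). Against 20.2% higher and 17.0% lower among all tested genes, 0 were higher and 1 was lower. Rab18 (FBgn0015794; X, 5670827 to 5671812, minus strand), a Rab of the endoplasmic reticulum and lipid droplets, was the one. Rab18 had 8.03, 8.07 and 7.93 CPM in RIP, against 10.6, 9.89 and 9.94 CPM in input. The RIP values were nearly equal and all below input, so that Rab18 fell by 0.34 ± 0.10 on the log2 scale (edgeR adjusted p = 0.0406). Rab18 has 1 annotated transcript of 833 bases, the shortest of the tested members, and its direction turned with the length trend removed (log2 0.52; edgeR adjusted p = 0.0419). With 1 library left out it was called only without RIP replicate 3 (adjusted p up to 0.13 otherwise).

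Rab1 (FBgn0016700; 3R, 21266029 to 21269060, minus strand) had 76.6, 68.0 and 113.9 CPM in RIP, against 62.8, 58.5 and 80.7 CPM in input. Replicate 3 was highest in each group, so the groups overlapped and the difference did not pass (log2 0.36 ± 0.23; edgeR adjusted p = 0.282). Within each number RIP was above input, by 0.29, 0.22 and 0.50 on the log2 scale, and with the replicate block Rab1 was called higher (log2 0.33 ± 0.08; edgeR adjusted p = 0.0015). Exons of Rab1 share 742 bases with asRNA:CR45798 on the other strand.

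Rab2, a Golgi Rab that in flies also serves fusion with lysosomes, had 24.5, 24.5 and 39.9 CPM in RIP, against 25.3, 25.8 and 33.6 CPM in input (log2 0.07 ± 0.23; edgeR adjusted p = 0.852). Rab6, which acts at the Golgi, had 14.7, 12.8 and 14.97 CPM in RIP, against 11.8, 15.5 and 17.3 CPM in input (log2 -0.07 ± 0.16; edgeR adjusted p = 0.773). Both sets overlapped. The low Golgi members Rab19, Rab30 and Rab39 had log2 fold changes of -0.08, 0.19 and 0.00 and did not pass (edgeR adjusted p from 0.4995 to 0.988).

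None of the 3 Rabs of late endosomes and lysosome-related organelles passed (median log2 fold change -0.36), where 37.3% of all tested genes did. Rab7 had 42.5, 36.7 and 61.5 CPM in RIP, against 53.7, 43.1 and 84.1 CPM in input (log2 -0.36 ± 0.30; edgeR adjusted p = 0.41). Rab32, the product of the eye colour gene lightoid, had 96.6, 105.3 and 162 CPM in RIP, against 128, 144 and 252 CPM in input (log2 -0.53 ± 0.32; edgeR adjusted p = 0.259). In both genes replicate 3 of each group was far above the other numbers, and RIP was below input within each number. For Rab32 those log2 ratios were -0.41, -0.45 and -0.64, and for Rab7 they were -0.34, -0.23 and -0.45. With the replicate block both were called lower (edgeR adjusted p = 1.88e-05 for Rab32 and 0.0012 for Rab7). Rab9, which returns receptors from late endosomes to the Golgi, had 4.41, 4.47 and 5.09 CPM in RIP, against 5.83, 4.97 and 6.18 CPM in input, overlapping (log2 -0.28 ± 0.15; edgeR adjusted p = 0.197).

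Rab40 (FBgn0030391; X, 12459796 to 12463112, minus strand), whose protein carries a SOCS box that binds a ubiquitin ligase, had 4.14, 3.82 and 4.71 CPM in RIP, against 5.35, 6.90 and 6.90 CPM in input. The groups did not overlap, and Rab40 fell by 0.60 ± 0.17 on the log2 scale (edgeR adjusted p = 0.032). With the length trend removed the value was -0.37 (edgeR adjusted p = 0.206), and with 1 library left out the call held only without input replicate 1 or RIP replicate 3 (adjusted p up to 0.128 otherwise). Rab23, of planar cell polarity in the fly wing, had 3.28, 2.20 and 3.24 CPM in RIP, against 2.37, 2.21 and 3.19 CPM in input, with no separation of the groups (log2 0.16 ± 0.25; edgeR adjusted p = 0.661).

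Of the X-numbered members, 4 were tested and none passed, where 37.3% of all tested genes did. RabX4 had 9.63, 9.97 and 10.7 CPM in RIP, against 10.8, 13.02 and 16.4 CPM in input, without overlap (log2 -0.41 ± 0.17; edgeR adjusted p = 0.113). Its exons share 131 bases with Kaz on the same strand, and it was the 1 tested member with an RSEM posterior SD above 0 (up to 1.6 counts). RabX1 and RabX6 overlapped between the groups, at log2 -0.18 and 0.20, and RabX6 exons share 466 bases with Vti1a on the other strand. RabX5 rested on 15, 17 and 20 counts in RIP, against 5, 9 and 23 in input, and its log2 value of -1.19 ± 0.63 did not pass (edgeR adjusted p = 0.199). With the replicate block RabX4 (edgeR adjusted p = 0.00358) and RabX5 (0.0309) were called lower.

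The 6 untested members, Rab9D, Rab9Db, Rab9E, Rab9Fa, Rab9Fb and RabX2, all lie on X between 10417429 and 10952486 and have 1 exon. Rab9D was listed at 4.46, 3.94 and 4.39 counts in RIP, against 0, 1.96 and 0 in input. Rab9E was listed at 10.02, 10.1 and 1.28 counts in RIP, against 8.21, 2.46 and 0 in input. RabX2 reached the highest value of the 6, at 11, 16 and 1 counts in RIP, against 3, 3 and 1 in input. These counts are near the floor in both groups, and RSEM gave posterior SDs of up to 2.59 counts for Rab9D, Rab9Db, Rab9E and Rab9Fa, which are read as uncertain between copies. Rab9Fa and Rab9Fb lie within Myo10A, Rab9E within X11Lbeta and RabX2 within CG32683.

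Zn72D has a known role in dosage compensation of the X chromosome, so the X-linked members were also counted apart. Of 7 tested on X, 2 were higher (Rab10 and Rab35) and 2 lower (Rab18 and Rab40), and of 19 on autosomes 2 were higher (Rab8 and Rab26) and 1 lower (Rab14). Among all tested genes, 499 of 1900 on X were higher and 294 lower, and 1853 of 9739 on autosomes were higher and 1695 lower. The split of the members moved with the length trend removed. There Rab10, Rab18 and Rab35 on X and Rab26 on an autosome were higher, and 0 members were lower. In that fit 10.2% of all tested genes were higher and 10.6% lower.

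Fold changes of the Rab genes followed transcript length. Across the 26 tested members the Spearman correlation of the log2 fold change with the transcript length averaged over libraries was 0.58, and across all tested genes 0.64; with the length trend removed it was 0.05 for the members and -0.07 for all genes. These are descriptions across genes that share libraries and depth. Mean fragment lengths were 195 to 207 bases in RIP and 162 to 172 in input, so the effective length of a given transcript was slightly shorter in RIP than in input, and the part of fragment length was not tested.

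The members' medians lay near those of all genes of like length. The 2 members under 1000 bases (Rab18 and RabX5) had a median log2 fold change of -0.76, against -0.88 for all genes in that class. Rab18 lay above that class median, at -0.34, and RabX5 below it, at -1.19. The 9 members of 1000 to 1500 bases had -0.36, against -0.32, and the 9 of 1500 to 2000 bases had -0.07, against -0.07. The 5 of 2000 to 3000 bases had 0.38, against 0.20, and Rab26, the 1 member above 3000 bases, had 0.68, against 0.59. Rab32, at 2614 bases, lay furthest below its class. The median length of the tested members was 1591 bases and that of all tested genes 1822.

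**Figure D3:**
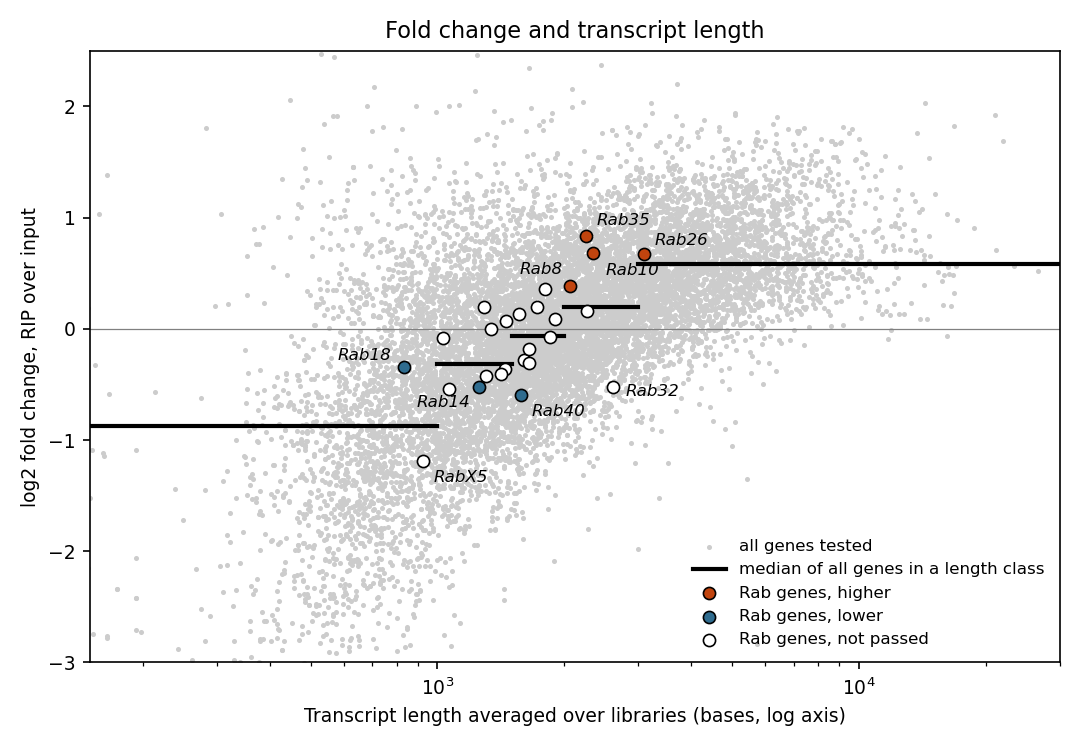
Log2 fold change of RIP over input against transcript length averaged over libraries (bases, log axis) for all tested genes (grey), with Rab genes by call and the median of all genes in each of 5 length classes (black lines); 159 of 11670 genes lie beyond the axes. Rab18 (-0.34) and RabX5 (-1.19) stand at the short end below 0, above and below the line of their class (-0.88). Rab26 stands at the long end above 0, near the line of its class.

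The deposited gene length gives a readout that the counts do not. RSEM averages the lengths of a gene's transcripts, weighted by their estimated abundance in each library, so a change of this length is a change of the estimated mix of transcripts. Of the 26 members, 17 had a length that varied between libraries. Of these 3 were longer in RIP (Rab7, Rab8 and Rab26), 1 was shorter (Rab11) and 13 did not pass, by limma with a trend at an adjusted p under 0.05, against a background of 13.2% longer and 3.67% shorter among 6410 genes. RIP lay above input without overlap in 6 members and below in 2, while for all genes the shares were 26.8% and 11.4%. With the replicate block 2 members were longer (Rab8 and Rab26) and 0 shorter (background 6.71% and 1.12%).

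Rab26 was weighted to longer transcripts in RIP, at 3237, 3258 and 3242 bases, against 2982, 2987 and 2875 bases in input. The RIP values varied little and stood well above input (log2 0.14 ± 0.02; limma adjusted p = 0.00969, and 0.0503 without RIP replicate 1). Of its 6 annotated transcripts, of 1547 to 3355 bases, Rab26-RG is the longest and alone has a 3′ UTR of 1017 bases, the others having 180, while Rab26-RE, of 3311 bases, has a 5′ UTR of 1898. A gene-level length does not tell these apart.

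Rab8 had 2131, 2129 and 2184 bases in RIP, against 1936, 1969 and 2018 bases in input. No RIP value reached down to input (log2 0.12 ± 0.02; limma adjusted p = 0.0185), but the call ended without input replicate 2 (limma adjusted p = 0.0609) and without any 1 of the RIP replicates (up to 0.0699). Rab7 had 1463, 1462 and 1506 bases in RIP, against 1396, 1416 and 1417 bases in input (log2 0.07 ± 0.01; limma adjusted p = 0.0415). Its call ended with the replicate block (limma adjusted p = 0.0673) and without any 1 library except RIP replicate 3 (up to 0.108). The longest transcripts of both genes are those with the longest 3′ UTR, of 1065 bases in Rab8 and 702 bases in Rab7.

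Rab11 moved the other way by a small amount. It had 1639, 1641 and 1636 bases in RIP, against 1656, 1658 and 1661 bases in input (log2 -0.017 ± 0.0022; limma adjusted p = 0.0118). The groups were tight and separate, and the call ended with the replicate block (limma adjusted p = 0.0717) and without RIP replicate 1 (0.0618). Rab11 has 2 annotated transcripts, of 1815 and 1627 bases, which share a 3′ UTR of 762 bases and differ in the 5′ UTR (408 and 220 bases). The weighted length places the share of the longer one at 6.53%, 7.52% and 4.64% in RIP, against 15.2%, 16.6% and 17.9% in input.

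For Rab2 and Rab6, also with 2 transcripts, the same estimate separated the groups while the test of the length did not pass. This share restates the weighted length on another scale, so its separation is that of the length. For Rab4, Rab19, Rab27 and Rab39, also with 2 transcripts, the shares overlapped between the groups. The longer Rab2 transcript, whose 3′ UTR is 925 bases against 300 in the shorter one, was estimated at 67.5%, 64.3% and 89.99% in RIP, against 39.6%, 49.4% and 45.5% in input (log2 length 0.18 ± 0.05; limma adjusted p = 0.0651). The longer Rab6 transcript, 1896 against 1830 bases, was at 12.3%, 22.6% and 36.5% in RIP, against 38.4%, 46.5% and 52.8% in input (log2 length -0.011 ± 0.0041; limma adjusted p = 0.145). So RIP lay above every input value for Rab2 and below every input value for Rab6. Rab32 (limma adjusted p = 0.0772) and Rab40 (0.0714) were longer in each RIP library than in each input library without passing. The length of Rab32 passed without input replicate 1 (limma adjusted p = 0.0159), that of Rab40 without input replicate 3 (0.0238) and that of Rab2 without RIP replicate 3 (0.0484). Rab35, with the highest fold change, was not called by length (log2 0.05; limma adjusted p = 0.491).

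**Figure D4:**
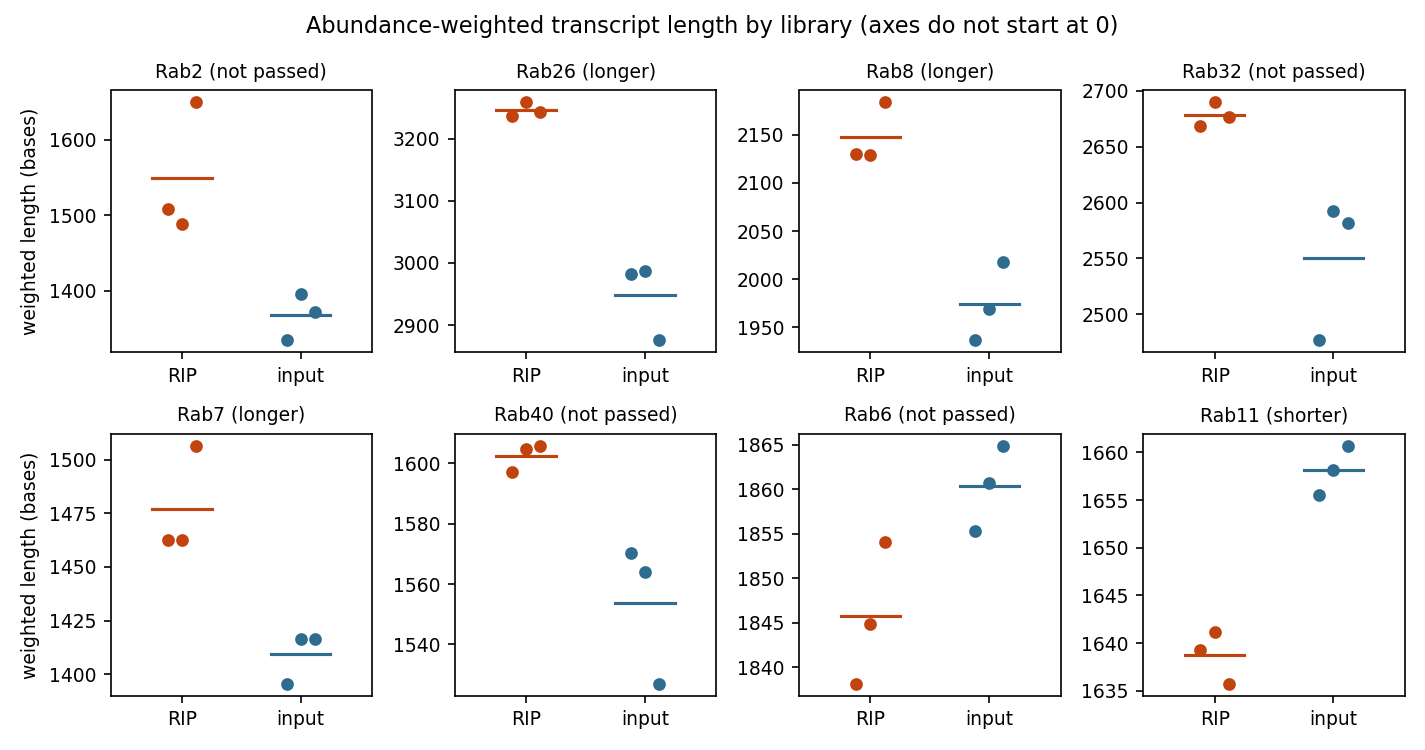
Abundance-weighted transcript length in bases (vertical axes that do not start at 0) in each RIP and input library, RIP left, for the 8 Rab genes whose groups did not overlap; lines are means of 3 and the panel titles give the limma call. RIP stands above input for Rab2, Rab7, Rab8, Rab26, Rab32 and Rab40 and below input for Rab6 and Rab11.

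The regulators, effectors and tethers of Rab proteins were counted from 4 lists, of which all 93 members were tested. Together 29 were higher in RIP, 12 lower and 52 did not pass (median log2 fold change 0.13), where 20.2% of all tested genes were higher and 17.0% lower. Without the length trend this split turned to 3 higher and 28 lower (median -0.20), against 10.2% and 10.6% of all genes, and with the replicate block it was 41 higher and 18 lower, against 32.7% and 27.7%. It was 21 and 16 without rRNA genes, 28 and 16 with upper-quartile scaling, 92 and 0 scaled by library size only, and 93 and 0 in log2(TPM + 1).

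The 4 genes of chaperones and prenylation keep Rabs soluble and add their lipid anchor. Against 20.2% higher and 17.0% lower among all tested genes, 0 of them were higher and 1 was lower (median -0.10). It was RabGGTb, the catalytic subunit of the enzyme that prenylates Rabs, with 3.84, 4.06 and 4.58 CPM in RIP, against 6.68, 5.57 and 5.92 CPM in input (log2 -0.54 ± 0.15; edgeR adjusted p = 0.0287). Gdi, the chaperone of GDP-bound Rabs, had 55.4, 49.9 and 86.1 CPM in RIP, against 43.1, 41.3 and 60.7 CPM in input, overlapping (log2 0.40 ± 0.25; edgeR adjusted p = 0.28), and was called higher with the replicate block (edgeR adjusted p = 0.00045).

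Of the 20 exchange factor genes, 4 were higher and 3 lower (median -0.03), against 20.2% and 17.0% of all tested genes. With the length trend removed 1 was higher and 7 lower (median -0.23), against 10.2% and 10.6%. The higher ones included pcs, an exchange factor of Rab11 (1.75-fold, log2 0.81 ± 0.11; edgeR adjusted p = 0.0025), and Crag, a DENN-domain exchange factor of Rab10 and Rab11 (log2 0.54 ± 0.10; edgeR adjusted p = 0.00841). Crag turned with the length trend removed (log2 -0.24; edgeR adjusted p = 0.0459), while pcs stood at 0.73 (0.00749). The lower ones included Trs31 (log2 -1.28 ± 0.28; edgeR adjusted p = 0.0139) and Bet5 (-0.85 ± 0.19; 0.0155), small subunits of the TRAPP complex that activates Rab1. Trs31 has 666 bases and Bet5 1051, and with the length trend removed they stood at -0.16 and -0.25 without passing. Mon1, the third lower gene, part of the exchange factor of Rab7 and named after its values were seen, was lower in both fits (log2 -0.73 ± 0.17, edgeR adjusted p = 0.0168, and -0.66, edgeR adjusted p = 0.0327, with the length trend removed).

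Of the 21 TBC-domain genes, 9 were higher and 0 lower (median 0.44), but with the length trend removed 1 was higher and 2 lower (median -0.03). Over all tested genes the shares were 20.2% higher and 17.0% lower, and 10.2% and 10.6% with the trend removed. CG1695 was 1.87-fold higher (log2 0.90 ± 0.09; edgeR adjusted p = 0.000891), with 132.3, 135.5 and 143 CPM in RIP, against 68.2, 72.3 and 79.5 CPM in input. CG42795 was 1.75-fold higher (log2 0.81 ± 0.12; edgeR adjusted p = 0.00279). Both are long, at 6238 and 9780 bases, and with the length trend removed they stood at 0.15 and -0.11 without passing.

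Of the 48 effectors and tethers, 16 were higher and 8 lower (median 0.14), and with the length trend removed 1 was higher and 19 lower (median -0.27). Of all tested genes 20.2% were higher and 17.0% lower in the first fit, and 10.2% and 10.6% in the second. The golgin lva was 1.68-fold higher (log2 0.75 ± 0.10; edgeR adjusted p = 0.00209) and btsz, a synaptotagmin-like protein, 1.49-fold (log2 0.58 ± 0.09; edgeR adjusted p = 0.00349). Both turned below 0 with the length trend removed, at -0.15 and -0.28. The golgin GCC88 (log2 -0.74 ± 0.14; edgeR adjusted p = 0.00778) and the endosomal SNARE Syx7 (-0.81 ± 0.18; 0.0142) were lower, and stood at -0.86 and -0.58 with the length trend removed.

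The Arf and Sar family of small GTPases gave a point of comparison. Of its 12 tested genes, 5 were lower and 0 higher (median -0.59), against 17.0% lower and 20.2% higher among all genes. The lower ones include Arl1 (2.5-fold lower, log2 -1.32 ± 0.18; edgeR adjusted p = 0.00226) and Arf1 (1.72-fold lower, -0.78 ± 0.12; 0.00338). After removal of the length trend 1 was lower and the median was 0.16 (10.6% of all genes were lower). Whether this list differs from the Rab genes was not tested.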

How the data were processed

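Per the file headers, the authors deposited RSEM expected counts, TPM, transcript length, effective length and a posterior SD for 17453 genes in each of 6 libraries. The submitters' processing notes list the build dm6 with the tools RSEM 1.2.30, STAR 2.5.4b, Trim Galore 0.4.5 and DESeq2 1.20.0. For the annotation release and strand setting, nothing is given in the sources used here. rRNA was, per the labels, removed with antisense oligonucleotides and RNase H. RSEM divides reads that match several genes, and 95.1% of the deposited expected counts were whole as listed. The deposited TPM is relative to all genes, rRNA included, so it was rescaled over protein-coding genes for levels.

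Symbols, transcripts and dm6 coordinates came from Ensembl's BDGP6 annotation: 17179 IDs matched directly, 197 through transcript IDs, and 77 stayed without a symbol. After rounding, expected counts were filtered with filterByExpr (11670 genes), scaled by TMM (factors 1.69 to 2.01 in RIP and 0.478 to 0.608 in input) and tested with edgeR 4.0.16's quasi-likelihood test (R 4.3.3) on group alone, with p-values adjusted by Benjamini-Hochberg over all genes tested and a threshold of 0.05. Each SE follows from the fold change divided by the root of F. Deposited gene lengths were tested on the log2 scale with limma 3.58.1. For genes with 2 transcripts, the share of the longer one follows from the weighted length and both annotated lengths. The length trend was removed with a loess (span 0.5) of each library's counts on log2 effective length. The script was tested on simulated data.

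Same-numbered libraries deviated together from their group means (correlations across genes 0.665, 0.604 and 0.848 for numbers 1, 2 and 3), although numbers 1 and 2 correlated about as well with each other (0.626 and 0.604). As each same-numbered value exceeds 0.1, the number was used as a block in an alternative fit, given where it changes a call. The main fit leaves the number out, so its calls, SEs and adjusted p-values use no pairing. No replicates agreed within sampling noise (15.8 to 142 chi-square units per degree of freedom), so all were kept.

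Members and lists were chosen with earlier results of these data known. Every member is named, and in each other list the 2 genes of smallest p in each direction among those past the threshold; Gdi and Mon1 were named after their values were seen. A further list of small GTPases is not reported here. With 3 libraries a group, an exact permutation test of 1 gene cannot go below 0.1, so no such test was used. Alternatives were other scalings (RLE, upper quartile, library size, without rRNA genes), DESeq2 1.42.0, limma-voom, log2(TPM + 1) and log2(TPM + 0.1), no filter, a filter of 10 CPM outside rRNA in 3 libraries, the length trend, the block, and leaving out libraries.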

Additional observations from a re-analysis of the deposited data

How the results depend on the processing

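Rab26 and Rab35 were called higher in all 20 alternatives. Among these, library size alone and both TPM settings called 25 or 26 of the 26 members higher, and so do not single them out. Across all genes, 1195 were higher and 1234 lower with the length trend removed, 3821 and 3230 with the replicate block, 9386 and 173 with library size alone, 11296 and 25 in log2(TPM + 1), and 11315 and 27 in log2(TPM + 0.1). Without a filter 2310 of 15795 genes were higher and 1588 lower. With the stricter filter 1693 of 6761 genes were higher and 2102 lower, so there the split of all genes also lay towards lower. With both the block and the length trend removed, 3153 were higher and 2707 lower. Rab members higher and lower were 4 and 8 with upper-quartile scaling, 25 and 0 with library size alone, 26 and 0 in both TPM settings, 3 and 7 without rRNA genes, 4 and 0 without a filter, 3 and 10 with the stricter filter, 4 and 0 with the length trend removed, 5 and 10 with the replicate block, and 11 and 2 (Rab32 and Rab40) with both. The regulator and effector lists had 92 higher and 0 lower with library size alone, 93 and 0 in both TPM settings, 28 and 5 without a filter, 20 and 25 with the stricter filter, 3 and 28 with the length trend removed, 41 and 18 with the block, and 14 and 42 with both. With the block, 430 genes were longer and 72 shorter, with 2 Rab genes longer and 0 shorter. The cause was not tested.

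With 1 library left out, 1593 to 2608 genes were higher and 1409 to 2361 lower, Rab members numbered 2 to 4 higher and 0 to 6 lower, and the other lists 17 to 37 higher and 5 to 13 lower. Lower Rab members numbered 6 without RIP replicate 3, 1 without input replicate 1 or 2, and 0 without any of the other 3 libraries. Without replicate 3 of both groups, 3015 genes were higher and 3498 lower, with 3 and 11 Rab members and 33 and 19 genes of the other lists. By length, 315 to 717 genes were longer and 63 to 255 shorter, with 0 to 3 and 0 to 1 Rab members.

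Direction turned for Rab2 without replicate 3 of both groups (log2 -0.23, edgeR adjusted p = 0.0398). With the length trend removed, without and with the block, it turned for Rab18 (0.52 and 0.51), Crag (-0.24 and -0.25), CG42795 (-0.11 and -0.12), lva (-0.15 and -0.15) and btsz (-0.28 and -0.28), and with both for Rab19 (0.54) and Rab39 (0.35). Relative to the median of all genes in log2(TPM + 1), it turned for Rab14 (0.23), Rab18 (0.39) and Arf1 (0.042). Turns are listed for genes called in the main fit, and for Rab2, Rab19 and Rab39 as called in the alternative. With the length trend removed and no block, Rab6 (0.01), Rab19 (0.53), Rab21 (0.04), Rab39 (0.38) and RabX1 (0.0005) also changed sign without passing. The replicate block changed no other Rab call by counts than those given with the members. Input depth outside rRNA limits the low members most: RabX5 rested on 5 to 23 counts there.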
